A study of Mus musculus with 2 samples.

Results

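Tcf7 and Lef1 expressing T cells were picked cell by cell from 2 single-cell RNA-seq libraries of mouse tumours, and 198 of the 10425 cell barcodes with at least 1000 UMIs (unique molecular identifiers, each standing for 1 captured transcript) met the rule. A barcode was a member when it had at least 1 UMI of the CD3 genes Cd3e, Cd3d and Cd3g summed, at least 2 UMIs of Tcf7 and Lef1 summed, at most 2 of Gzmb, 0 of Foxp3, and at most 1 each of Mki67 with Top2a, of Ncr1 with Klrb1c, and of Csf1r with Adgre1 and Fcgr1. The rule therefore set aside regulatory, cycling, granzyme B rich, NK and macrophage barcodes by their own genes, and the levels of all these genes are given below only as a description. There were 127 members among 5655 such barcodes in the TMEM16F KO library and 71 among 4770 in the vector control library. Members with a UMI of Cd8a or Cd8b1 are called CD8 members, and members with a UMI of Cd4 are called CD4 members.

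The tumours grew from the mouse colorectal cancer line MC38, whose cells carried either an empty vector or a knockout of TMEM16F, and were taken 21 days after engraftment from mice that received no treatment. TMEM16F, a calcium-activated phospholipid scramblase encoded by Ano6, was deleted in the engrafted cancer cells and not in the T cells of the host. The strain, sex and age of the mice, the number of mice behind each library and the clonality of the knockout line were not given in the sources used here. The study asked how loss of the scramblase in the tumour changes its immune cells. With 1 library per genotype there is no replicate, so the genotype cannot be told apart from the mouse, the dissociation or the library, and no test between genotypes was possible. All intervals below are 95% intervals that cover counting error only.

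TCF-1, the product of Tcf7, and LEF-1 are related DNA-binding proteins of the HMG box family that work with beta-catenin and with Groucho/TLE corepressors. Both are needed for T cell development in the thymus, stay on in naive and memory T cells, and are turned down as effector cells differentiate. In tumours and chronic infection, TCF-1 marks a stem-like pool of CD8 T cells that renews itself and gives rise to more differentiated, exhausted progeny.

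The members had a median of 3940 UMIs and 1671 genes in the KO library (range 1061 to 15248 UMIs) and 4770 UMIs and 1830 genes in the vector library (1390 to 17288). T cells that met every other condition but had 0 UMIs of Tcf7 and Lef1, called other T cells, numbered 598 and 614, with medians of 3900 and 3850 UMIs. The whole libraries held 49777630 and 46338994 UMIs in 5993 and 5253 barcodes. Of 10 barcode sequences found in both libraries, 1 was a member in the KO library and none was a member in both. Ano6, the targeted gene, was counted at 31.7 CPM (UMIs of the gene per 1000000 UMIs of the class) in KO members and at 23.4 CPM in vector members, which are host cells.

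The label was set beside Trac, the constant gene of the alpha T cell receptor chain, which the rule did not use. It had a UMI in 71.7% of KO and 73.2% of vector members, against 17% and 13.0% of NK-like barcodes (at least 3 UMIs of Ncr1 and Klrb1c and no CD3 UMI, 100 and 46 cells) and 10.2% and 8.96% of macrophage-like barcodes (at least 3 UMIs of Csf1r, Adgre1 and Fcgr1 and no CD3 UMI, 1272 and 1161 cells), both deeper at medians of 6383 and 7712 UMIs and of 10010.5 and 12061 UMIs. Members needed a CD3 UMI and both comparison classes had none, so part of this difference in Trac was set by the definitions of the classes. The genes of the rule are given as a description: Cd3e had a UMI in 105 of 127 KO and 63 of 71 vector members. Tcf7 stood at 385 CPM in KO and 400 CPM in vector members, and Lef1 at 332 and 236 CPM. Of the KO members, 46 had Tcf7 UMIs only, 27 Lef1 UMIs only and 54 both, against 29, 11 and 31 in the vector library. The highest sum of both in a cell was 15 and 18 UMIs. Just inside the threshold, 61 KO and 28 vector members had exactly 2 UMIs of the pair, and just outside it 104 and 62 T cells had 1.

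Free RNA gives stray UMIs in droplets, and macrophage-like barcodes served as the background for Tcf7 and Lef1. A Tcf7 UMI was seen in 1.18% and 0.947% of them and a Lef1 UMI in 0.865% and 0.345%. Natural killer cells also use TCF-1, and among NK-like barcodes a Tcf7 UMI was seen in 51% of 100 and 41.3% of 46. Ncr1, the NK receptor NKp46, had no UMI in any member, but the rule itself allowed at most 1 UMI of Ncr1 and Klrb1c summed. Klrb1c, the other NK gene of the rule, had a UMI in 14 KO and 8 vector members. Of these, 12 and 8 were among the 68 KO and 30 vector members with no Cd4, Cd8a or Cd8b1 UMI.

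Transcripts of other cell types were present in the members and differed between the libraries. The 12 macrophage markers summed to 4876 CPM in KO members and 2794 CPM in vector members, with none of the 12 at 0 in either library. Per member this was a median of 15 UMIs (range 2 to 329) against 9 (range 1 to 156), and leaving out the 9 KO and 5 vector members with over 1% of UMIs from these markers gave 3645 and 1905 CPM. Genes of MHC class II, which T cells of mice do not make, summed to 4611 and 1992 CPM. The B cell list summed to 127 and 130 CPM with Ms4a1 and Pax5 among the genes at 0 in both libraries, the dendritic list to 48.4 and 18.2 CPM with 2 and 6 of 9 genes at 0, the stromal list to 93.5 and 46.7 CPM, and the neutrophil list to 100 CPM in the KO library with all 6 genes at 0 in the vector library. The NK list summed to 893 and 802 CPM and the ILC2 list to 791 and 314 CPM. The part of these transcripts, and of doublets, in the results between libraries was not tested beyond the limits on macrophage and MHC class II transcripts given with them.

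Members were a larger share of the KO library. They made up 2.25% of its barcodes (interval 1.88 to 2.67) against 1.49% (1.16 to 1.87) of the vector library, a ratio of 1.51 (1.12 to 2.05). T cells of the same kind regardless of Tcf7 and Lef1 were 14.7% and 15.7% of barcodes, so of these T cells 15.3% (12.9 to 18.0) and 9.50% (7.50 to 11.8) were members, a ratio of 1.61 (1.20 to 2.19). The ratio depended on how many UMIs of the pair were asked for: with at least 3 UMIs it was 1.29 (0.869 to 1.95, 66 against 43 cells), and with at least 1 it was 1.47. When each barcode was thinned to 1000 UMIs, 27 and 6 members were left and the ratio was 3.80 (1.54 to 11.2), and at 2000 UMIs it was 1.44 (0.906 to 2.34).

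The ratio was computed for each coreceptor class, and the differences between the classes were not tested. CD8 members were 41 and 33, or 0.725% and 0.692% of barcodes, a ratio of 1.05 (0.647 to 1.71). CD4 members were 21 and 9, a ratio of 1.97 (0.864 to 4.88). Members with a UMI of neither coreceptor were the most numerous class in the KO library, with 68 and 30 cells or 1.20% and 0.629% of barcodes, a ratio of 1.91 (1.23 to 3.04). Of all members, CD8 members were 32.3% in the KO and 46.5% in the vector library, CD4 members 16.5% and 12.7%, and members with neither 53.5% and 42.3%, and the intervals of these 3 ratios of shares all held 1 (0.428 to 1.13, 0.573 to 3.24 and 0.813 to 2.02). Among other T cells the shares with a CD8 UMI were 43.1% and 48.0%, with Cd4 10.5% and 7.65%, and with neither 47.8% and 45.9%. A missing UMI does not show a missing coreceptor at this depth.

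**Figure D1:**
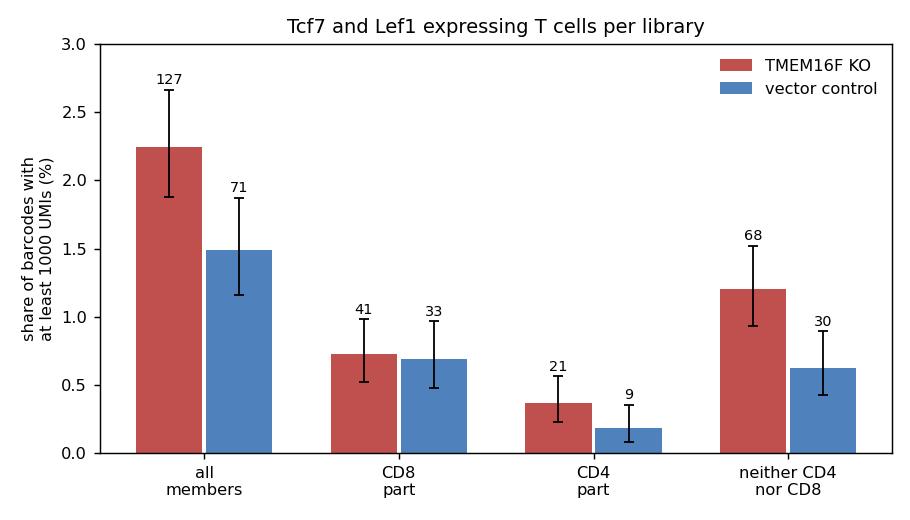
Share of barcodes with at least 1000 UMIs (vertical axis, percent) that were members, CD8 members, CD4 members or members with neither coreceptor, in the TMEM16F KO library (red) and the vector control library (blue), 1 library each. Error bars are exact 95% intervals for counting error and the number over each bar is its cell count: the bars for CD8 members nearly match, with 41 and 33 cells, and those for members with neither differ, with 68 and 30.

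Members were then compared with other T cells within each library, which asks what goes with Tcf7 and Lef1 in the same tumour. UMIs were summed over the cells of each class, and a gene with at least 50 UMIs over the classes compared counted as measured and as past the fold at a CPM ratio of at least 1.5 either way. Of 6188 measured genes, 698 (11.3%) were past the fold higher in members in both libraries and 645 (10.4%) lower. Without mitochondrial, ribosomal protein and haemoglobin genes in the totals these counts were 885 and 534, and as a mean over cells 388 and 694, which turned the balance. When both classes were limited to cells with a UMI of an alpha or beta T cell receptor constant gene and at most 1% of UMIs each from macrophage and MHC class II genes, a setting chosen after seeing the data, 396 were higher and 244 lower. Ribosomal protein transcripts took 24.0% of UMIs in KO members and 19.3% in other T cells of that library, and 29.0% against 23.4% in the vector library, and their part in the counts was tested only by the rescaling, which moved the median log2 ratio of all genes by 0.08 and 0.11.

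The 15 genes highest in members by the naming rule included zinc finger and signalling genes of naive and memory T cells. Zeb1, a zinc finger repressor, was at 411 against 94.3 CPM and at 431 against 49.1 CPM, ratios of 4.35 (3.65 to 5.19) and 8.79 (7.01 to 11.0). Txk, a Tec family kinase, was at 115 against 29.2 CPM and 156 against 25.3 CPM, ratios of 3.94 (2.82 to 5.48) and 6.15 (4.32 to 8.71). Both genes were higher in members in both libraries with an interval clear of 1, as the naming rule required of every named gene. Sidt1 (6.61 and 14.6), Scml4 (6.36 and 8.68), Aff3 (4.72 and 14.2), Ssbp2 (4.35 and 9.25), Samd3 (4.8 and 4.5), St3gal6 (5.36 and 4.25), Ifi208 (4.8 and 4.16) and Sntb1 (4.44 and 4.05) were also among the 15, given as the KO and the vector ratio.

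Another 4 of the 15 highest genes are best known from NK cells, innate-like T cells and gamma delta T cells. Klra1 and Klra7 encode Ly49 receptors for MHC class I, and as near-identical copies their reads may be split between family members. Klra7 was at 154 CPM in KO members against 15.7 CPM in other T cells and at 252 against 11.5 CPM in the vector library, ratios of 9.81 (6.8 to 14.3) and 21.8 (14.7 to 32.9), and Klra1 had ratios of 10.5 (6.81 to 16.5) and 10.8 (6.37 to 18.5). Cd7, a surface glycoprotein of T and NK cells, was at 232 against 39 CPM and 151 against 23.1 CPM, ratios of 5.95 (4.61 to 7.71) and 6.52 (4.53 to 9.35). Trdc, the constant gene of the delta T cell receptor chain, which lies inside the Tra locus, was at 187 against 39.3 CPM and 114 against 13.8 CPM, and it had a UMI in 17 KO and 9 vector members. Only 1 KO and 2 vector members had Trdc without Trac, Trbc1 or Trbc2. Under the limits on alpha beta T cell receptor, macrophage and MHC class II transcripts all 15 genes stayed higher in both libraries, with ratios of 8.28 and 14.6 for Klra7, 5.85 and 5.98 for Cd7 and 3.57 and 7.20 for Zeb1.

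Of the 20 genes listed for naive and memory T cells, 13 were measured, and 10 were past the fold higher in members in both libraries and 2 lower. The median log2 ratio of the 13 was 0.99 in the KO and 1.50 in the vector library, against 0.05 and 0.04 over all measured genes. Satb1, a chromatin organizer of thymocytes and naive T cells, was at 467 against 150 CPM and 439 against 76.3 CPM, ratios of 3.12 (2.68 to 3.64) and 5.75 (4.69 to 7.03). Klf2, which drives the egress receptor S1pr1, was at 1263 against 433 CPM and 1117 against 440 CPM. Il7r, the receptor chain for the survival cytokine IL-7, was at 380 against 192 CPM and 265 against 114 CPM. Bcl2 (ratios 2.96 and 2.84), Bach2 (2.54 and 4.1), Klf3 (2.61 and 3.94), Foxp1 (1.83 and 2.47), Foxo1 (1.54 and 4.44) and Id3 (1.7 and 3.73) were also among the 10. Ccr7, a lymph node homing receptor, went the opposite way, with 117 CPM in members against 219 CPM in other T cells and 54.5 against 188 CPM. Ccr7 is also made by mature dendritic cells, and the dendritic list summed to 211 and 267 CPM in other T cells, against the 48.4 and 18.2 CPM of the members.

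TCF-1 and LEF-1 bind a short motif with the core CTTTG, and CTTTGAA (as found for Txk), CTTTGAT (as found for Klra7), CTTTGTT (as found for Satb1) and the further form CTTTGTA were searched on both strands in the 250 bases before RefSeq gene starts (GRCm38.p6). Of 27025 genes with such a window, 4527 (16.8%) held a match. Of the 15 genes highest in members, 9 had a window and 3 of them a match (Klra7, Ifi208 and Txk), of the 15 lowest 8 had a window and none a match, and of the naive and memory list 17 had a window and 4 a match. The comparison of CD8 members with other CD8 T cells, given below, went the other way. There 1 of 10 genes highest in CD8 members with a window had a match, against 3 of 13 of the lowest. These shares were not tested. Ifi208 and Foxp1 also had a match and were higher in members in both libraries, and their matches are not shown. The matches of Txk, Satb1 and Klra7 are shown as examples from genes higher in members in both libraries. Capitals mark 1 match in each, read 5′ to 3′ on the strand of the gene. A match is a description of these letters and not of binding.
Txk, chr5:72752919-72753015, minus strand: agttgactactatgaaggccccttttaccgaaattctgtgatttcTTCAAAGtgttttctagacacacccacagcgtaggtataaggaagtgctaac
Satb1, chr17:51812151-51812247, minus strand: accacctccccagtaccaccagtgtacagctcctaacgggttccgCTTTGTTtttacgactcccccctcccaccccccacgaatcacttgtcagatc
Klra7, chr6:130233347-130233443, minus strand: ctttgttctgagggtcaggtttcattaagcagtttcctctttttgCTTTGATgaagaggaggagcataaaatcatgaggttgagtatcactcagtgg

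In the window of Txk the match is the reverse complement of CTTTGAA and lies 193 to 187 bases before the start. That of Satb1 is CTTTGTT, 148 to 142 bases before, and that of Klra7 is CTTTGAT, 76 to 70 bases before. The same Satb1 match lies 18 to 12 bases before another start of that gene.

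Among genes of glycolysis, killing and inhibition, more were past the fold lower in members than higher. Of 18 measured genes of glycolysis and hypoxia, 10 were past the fold lower in both libraries and none higher, with median log2 ratios of -0.73 and -1.27. Macrophage-like barcodes held 14531 and 14369 CPM of this list, against 4621 and 4005 CPM in members and 8668 and 9482 CPM in other T cells, and macrophage markers were at 10006 and 8391 CPM in other T cells against 4876 and 2794 CPM in members. Under the limits on alpha beta T cell receptor, macrophage and MHC class II transcripts the medians were -0.80 and -0.97. Gapdh was at 1642 CPM in KO members against 3262 CPM in other T cells, lower by a factor of 1.99 (1.86 to 2.12), and at 1428 against 3613 CPM in the vector library, a factor of 2.53 (2.32 to 2.76). Of 16 cytotoxic effector genes, 6 were lower in both libraries (Gzmc, Gzmf, Prf1, Nkg7, Cst7 and Zeb2) and 2 higher (Gzma and Ccl5). Prf1, the pore-forming protein perforin, was lower by factors of 2.41 and 3.32. Ccl5, a chemokine of memory and effector T cells, was at 2537 against 1468 CPM and 2402 against 1109 CPM. The vector value of Gzma rests on 1 cell with 91 UMIs.

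Of 10 measured inhibitory receptor and exhaustion genes, 4 were lower in members in both libraries: Lag3 by factors of 2.05 and 3.09, Ctla4 by 1.81 and 1.95, Havcr2, which encodes TIM-3, by 2.59 and 6.24, and Entpd1, which encodes CD39. Pdcd1, which encodes PD-1, was lower by 1.43 and 2.48, and Cd160 was higher by 1.8 and 1.96. Ikzf2, which encodes Helios, was at 357 against 111 CPM and 462 against 85 CPM, ratios of 3.22 and 5.44. Of 17 type I interferon stimulated genes, 7 were higher in both libraries (Ifit1, Ifit3, Usp18, Ifi203, Ifi206, Ifi208 and Slfn1) and none lower.

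Partners of the TCF/LEF factors, lipid transporters and receptor genes were past the fold in smaller numbers. Of 11 measured TCF/LEF partners and target genes, Txk, Tcf12 and Tle4 were higher in both libraries, Tle4, a Groucho corepressor, by 2.06 and 2.33. Of 9 phospholipid scramblases and flippases, the class to which Ano6 belongs, 3 were higher in both, among them the flippase genes Atp11b (2.13 and 2.87) and Atp9b (2.07 and 1.72). Of 13 measured T cell receptor complex genes, 6 were higher in both libraries, among them Cd247, Cd5, Cd2, Lck and Themis, and none lower, with median log2 ratios of 0.33 and 0.70. The KO median was -0.32 under the limits on alpha beta T cell receptor, macrophage and MHC class II transcripts. Those limits ask for a UMI of receptor constant genes that are in this list, so the change was partly set by them. Of 18 cytokine receptor genes, Il7r, Ifngr1 and Tgfbr2 were higher in both and Ifngr2 lower. None of 14 genes of oxidative phosphorylation was past the fold in both libraries.

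The 15 genes lowest in members included Napsa, Tnip3, Cst3, Pkib, Cxcl1, Alox5ap, Fdps, Clec5a, Lmo2, Ftl1-ps1, H1f0, H2-DMb1, Ccnd1 and Irf8, several of them myeloid genes. Cst3, a protease inhibitor rich in macrophages and dendritic cells, was at 1110 CPM in KO members against 5253 CPM in other T cells and at 283 against 4737 CPM in the vector library. Other T cells held more transcripts of other cell types, with macrophage markers at 10006 and 8391 CPM, MHC class II genes at 15411 and 12428 CPM, and the B cell list at 4890 and 10692 CPM. The part of these in the lower genes was examined only by the limits on alpha beta T cell receptor, macrophage and MHC class II transcripts. Under them Pkib, Alox5ap, Clec5a, Lmo2 and H2-DMb1 no longer were lower in at least 1 library. H2-DMb1 is itself counted in the MHC class II limit, so its change was partly set by that limit.

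Levels were also set against the number of Tcf7 and Lef1 UMIs in a cell, a sum that grows with depth. From 0 over 1 and 2 to at least 3 UMIs of the pair, Satb1 was at 150, 287, 239 and 657 CPM in the KO library and at 76.3, 165, 311 and 510 CPM in the vector library. Bach2, a repressor that holds back effector genes, was at 126, 219, 224 and 401 CPM and at 77.3, 83.9, 239 and 360 CPM. S1pr1, the sphingosine phosphate receptor that lets T cells leave tissue, was at 8.7, 30.2, 33.1 and 58.1 CPM and at 5.45, 7.87, 29 and 85 CPM. In both libraries cells with at least 3 UMIs had the highest level of these 3 genes, and in the KO library cells with 1 and 2 UMIs lay close together. Pdcd1 was at 88, 85.6, 88.2 and 39.8 CPM in the KO library and at 148, 110, 101 and 36.4 CPM in the vector library. Gapdh was at 3262, 2264, 2171 and 1202 CPM and at 3613, 2678, 1600 and 1332 CPM. For Pdcd1, the KO library showed no step before 3 UMIs, while in the vector library the level was lower at each step.

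**Figure D2:**
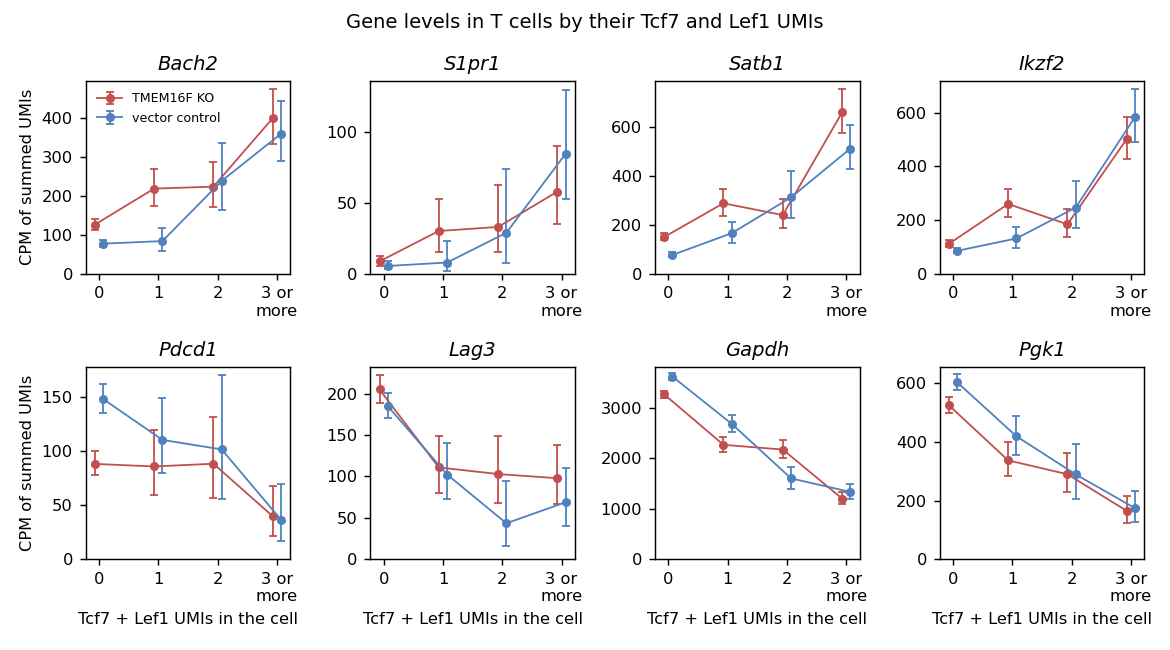
Level of 8 genes (vertical axis, CPM of summed UMIs) in T cells with 0, 1, 2 or at least 3 UMIs of Tcf7 and Lef1 (horizontal axis), in the TMEM16F KO (red) and vector control (blue) libraries, with exact 95% counting intervals. Bach2, S1pr1, Satb1 and Ikzf2 were highest in cells with at least 3 UMIs in both libraries, and Pdcd1, Gapdh and Pgk1 were lowest there; Lag3 was at 97.9 and 68.8 CPM there against 205 and 185 CPM in cells with 0.

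CD8 members with no Cd4 UMI (38 KO and 32 vector cells) were next compared with other CD8 T cells (249 and 285), so that both classes had a CD8 and no Cd4 UMI. A CD8 UMI does not fix the lineage, and 3 KO and 3 vector cells of these CD8 members had a Trdc UMI. This comparison was added after seeing the data. Of 3608 measured genes, 220 (6.1%) were past the fold higher in CD8 members in both libraries and 297 (8.23%) lower. The other CD8 T cells still held more transcripts of other cell types. Macrophage markers were at 3787 against 5319 CPM in the KO library and 3006 against 4185 CPM in the vector library, and MHC class II genes at 2954 against 7469 CPM and 1576 against 3840 CPM, with 5 of 6 measured genes past the fold lower in CD8 members in both libraries. Median depth was 3934 and 5247 UMIs in the CD8 members and 4395 and 4331 UMIs in the other CD8 T cells.

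Of 8 measured naive and memory genes, 5 were past the fold higher in CD8 members in both libraries. Klf2 was at 1310 CPM against 271 CPM in the KO library, a ratio of 4.83 (4.07 to 5.72), and at 758 against 327 CPM in the vector library, a ratio of 2.32 (1.9 to 2.8). Satb1 was at 427 against 196 CPM and 415 against 96.4 CPM, and Bcl2 (2.77 and 2.12), Foxp1 (1.71 and 2.16) and Bach2 (1.58 and 2.33) were higher in both as well. The median log2 ratios of the 8 were 0.89 and 1.16, against -0.07 and -0.03 over all measured genes. Ccr7 was lower in both libraries, at 219 against 243 CPM, which is within the fold, and at 60 against 137 CPM. Under the limits on alpha beta T cell receptor, macrophage and MHC class II transcripts all 8 genes were higher in the KO library. The direction of Ccr7 therefore turned there. In the vector library 7 of the 8 were higher under these limits and 1 lower. Il7r was higher by 2.02 in the KO library and by 1.34 in the vector library.

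Id3, S1pr1 and Slamf6 had under 50 UMIs over the classes compared in at least 1 library and are given as levels. Id3, an inhibitor of E proteins linked to memory CD8 T cells, was at 126 against 18.1 CPM and 175 against 35 CPM. S1pr1 was at 54.8 against 7.4 CPM and 65.5 against 6.6 CPM, with a UMI in 18.4% against 3.21% of KO cells and 25% against 2.81% of vector cells. In macrophage-like barcodes, which were deeper, an S1pr1 UMI was seen in 4.95% and 3.27%. With every cell thinned to 1000 UMIs the shares were 6.64% and 6.68% in CD8 members, 0.936% and 0.691% in other CD8 T cells and 0.596% and 0.438% in macrophage-like barcodes, so other CD8 T cells were near the background. Slamf6, a surface marker of TCF-1 positive exhausted cells, was at 82.2 against 12.3 CPM and 21.8 against 8.58 CPM. All 3 levels stood higher in CD8 members in both libraries, but they are given without intervals. The Slamf6 level of the vector CD8 members rests on few of the 183329 UMIs of that class.

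The 15 genes highest in CD8 members in both libraries were Txk, Fgf13, Zeb1, Cd7, Ssbp2, Myc, Slfn1, Fam241a, Asap1, Ifit1, Lncpint, Sirt1, Mideas, Elovl5 and Kat6a. Txk was at 132 against 28 CPM and 175 against 36.3 CPM, ratios of 4.7 (2.67 to 8.17) and 4.81 (3.01 to 7.57). Myc, the growth regulator, was at 137 against 41.1 CPM and 245 against 56.1 CPM, ratios of 3.33 (1.98 to 5.49) and 4.37 (2.98 to 6.35). Zeb1 was at 367 against 100 CPM and 360 against 46.9 CPM. All 15 stayed higher under the limits on alpha beta T cell receptor, macrophage and MHC class II transcripts. Of these, Ifit1 and Slfn1 belong to the interferon response, of which 4 of 10 measured genes were past the fold higher in both libraries: Ifit1 at 137 against 46.9 CPM and 191 against 25.7 CPM, Slfn1 (3.27 and 3.54), Ifi203 (2.09 and 2.41) and Isg15 (1.62 and 1.89).

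Of 14 measured cytotoxic genes 13 were lower in both libraries and 5 past the fold, with median log2 ratios of -0.79 and -1.26. Prf1 was at 76.7 against 192 CPM and 60 against 220 CPM, and Nkg7, a granule protein, at 1299 against 2729 CPM and 1025 against 2495 CPM. Both classes had at most 2 Gzmb UMIs per cell by the rule, so neither held the granzyme B rich cells. Among 10 inhibitory genes 6 were lower in both libraries and 1 higher, and 4 were past the fold lower and none higher: Pdcd1 at 49.3 against 151 CPM and 76.4 against 251 CPM, factors of 3.05 (1.57 to 6.78) and 3.29 (1.93 to 6.07), Ctla4 at 126 against 389 CPM and 76.4 against 230 CPM, Lag3 at 137 against 378 CPM and 98.2 against 302 CPM, and Havcr2 by factors of 1.79 and 7.32. The costimulatory receptor Tnfrsf9, or 4-1BB, was at 208 against 723 CPM and 180 against 568 CPM, and Tnfrsf4 and Tnfrsf18 were lower as well.

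Of 17 measured genes of glycolysis and hypoxia, 11 were past the fold lower in CD8 members in both libraries and none higher, with median log2 ratios of -0.91 and -1.36. Gapdh was at 1831 against 3488 CPM, a factor of 1.91 (1.7 to 2.14), and at 1304 against 3585 CPM, a factor of 2.75 (2.42 to 3.14). Aldoa was lower by 2.43 and 3.18, Pgk1 by 1.74 and 2.94 and Ldha, which makes lactate, by 1.58 and 2.96. Among the 15 lowest genes, Nrgn was at 60.3 against 423 CPM and 54.5 against 512 CPM, factors of 7.01 (3.89 to 14.1) and 9.38 (5.07 to 19.6). The metal-binding metallothionein Mt1 was at 60.3 against 276 CPM and 76.4 against 362 CPM, and Mt2 had 1 UMI in the CD8 members of each library. The others were Cst3, Anxa1, Prelid2, Gpm6b, Ptprs, Klrh1, Ifitm1, Znhit1, Timp2, Plekho1, Napsa and Anxa4.

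Some genes of the stem-like exhausted state were within 1.5-fold in both libraries. Xcl1, a chemokine that draws type 1 dendritic cells, had ratios of 1.0 and 1.29 (1677 against 1674 CPM and 3207 against 2480 CPM), and Tox, a regulator of exhaustion, 0.869 and 1.25. Most of the Xcl1 UMIs of the vector CD8 members were in 1 cell, so the vector ratio of Xcl1 rests largely on that cell. Ikzf2 was higher in CD8 members by 2.01 and 5.82.

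**Figure D3:**
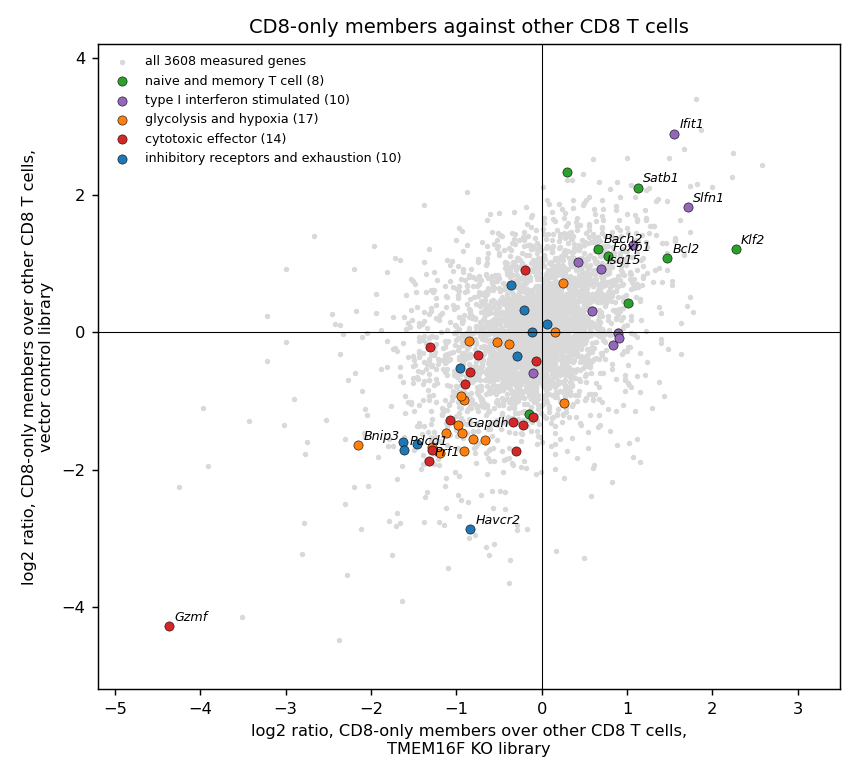
Each point is a gene, placed by its log2 ratio of CD8 members without a Cd4 UMI over other CD8 T cells in the TMEM16F KO library (horizontal axis) and in the vector control library (vertical axis); grey points are all 3608 measured genes and colours mark 5 gene lists. Most naive and memory genes lie upper right, with Klf2 at ratios of 4.83 and 2.32, and the glycolysis, cytotoxic and inhibitory genes lie mostly lower left, with Gapdh and Prf1 among them.

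Members with neither coreceptor, the most numerous class in the KO library, were compared with the CD8 members, another comparison added after seeing the data. Of 977 measured genes, 31 (3.17%) were past the fold higher in members with neither in both libraries and 16 (1.64%) lower. Trac had a UMI in 64.7% of the KO and 66.7% of the vector cells of this class. Few NK-like or macrophage-like barcodes held it, but those were chosen to have no CD3 UMI. Trdc had a UMI in 13 and 6 of them, against 3 and 3 of the 38 and 32 CD8 members. Trdc stood at 248 and 232 CPM, against 126 and 49.1 CPM in CD8 members and 0.823 and 15.2 CPM in other CD8 T cells.

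Cd7 ranked first by the smaller of its 2 ratios, at 393 CPM against 104 CPM in the KO library, a ratio of 3.77 (2.31 to 6.49), and at 259 against 104 CPM in the vector library, a ratio of 2.5 (1.41 to 4.57). In NK-like barcodes Cd7 was at 153 and 106 CPM. Klra7 was at 284 against 21.9 CPM in the KO library, where the CD8 members had 4 UMIs, and at 405 against 196 CPM in the vector library, a ratio of 2.06. Themis, a T cell receptor signalling adaptor of thymocytes that are being positively selected, was at 36.3 against 230 CPM, lower by 6.34 (3.21 to 13.7), and at 79.6 against 344 CPM, lower by 4.32 (2.31 to 8.79). Bcl11b, the factor that commits cells to the T lineage, was lower by 1.73 and 1.82 but stood at 155 and 159 CPM, against 5.22 and 9.86 CPM in NK-like barcodes. Prf1 was at 29.7 and 19.9 CPM, against 786 and 515 CPM in NK-like barcodes. Members had at most 2 Gzmb UMIs by the rule and NK-like barcodes had no such limit. Part of this difference in Prf1 may therefore have been set by the definitions of the classes. Klra7 was at 269 and 168 CPM in NK-like barcodes.

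Some genes were also counted together within the members with neither coreceptor, as a description with no test. In the KO library 43 of 68 had a Cd7 UMI and 7 a Themis UMI, and no cell had both, while in the vector library 15 and 11 of 30 had them and 5 had both. Of the 13 and 6 cells with Trdc, 11 and 5 had Cd7. Cd7 and Klra7 occurred together in 20 and 8 cells, and Cd7 and Ikzf2 in 29 and 12. Ikzf2 was at 571 and 597 CPM in these cells, against 137 and 469 CPM in CD8 members, a ratio of 4.17 in the KO library and 1.27 in the vector library.

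The other genes higher in members with neither were Cxcl10 (4.17 and 2.29), Ifit1 (2.82 and 1.84), Ifit3 (2.23 and 2.25), Ldlrad4 (2.29 and 2.05), Gpr132 (1.78 and 2.62), Gna13 (2.27 and 1.81), Cd74 (2.28 and 1.83), Rab5if, Aff1, Atox1, Dusp1, Evl and Slc3a2. The vector log2 ratio of Cd74, an MHC class II partner, turned to -0.97 with at least 3 UMIs of Tcf7 and Lef1 and to -0.070 under the limits on alpha beta T cell receptor, macrophage and MHC class II transcripts. Cd74 is itself counted in the MHC class II limit. Cxcl10, a chemokine induced by interferons, was at 1988 against 477 CPM and 1825 against 796 CPM. Of 7 type I interferon genes 3 were past the fold higher in both libraries (Isg15, Ifit1 and Ifit3), and none of the 7 measured naive and memory genes was past the fold in both. Lower besides Themis and Bcl11b were Aopep (3.18 and 3.77), Trp53 (1.71 and 2.6), Hif1a (1.66 and 2.85), Thy1 (1.77 and 1.68), Ifng (1.64 and 1.89), Ybx3, Smyd3, Atxn1 and Wnk1. Of the 4 measured MHC class II genes 3 were higher, and the macrophage markers summed to 5900 CPM against 3787 CPM in the KO library and to 2701 against 3006 CPM in the vector library, so they were higher in the KO library only.

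**Figure D4:**
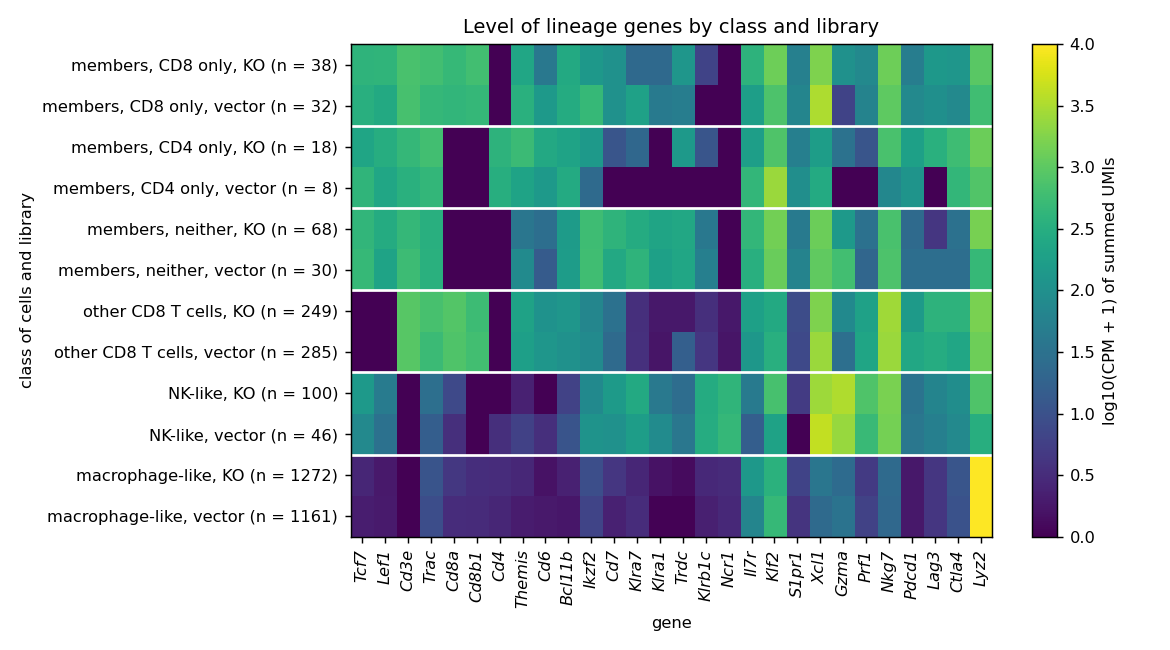
Level of 28 genes (columns) in 6 classes of cells from each library (rows, with the number of cells), coloured by log10(CPM + 1) of summed UMIs. Members with neither coreceptor have Cd7, Klra7 and Trdc at 393, 284 and 248 CPM and Prf1 at 29.7 CPM in the TMEM16F KO library, NK-like barcodes have Prf1 at 786 CPM, and other CD8 T cells have Klra7 at 2.47 CPM. The rule limited Gzmb in members and not in NK-like barcodes.

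CD8 members were compared with CD4 members, each without UMIs of the other coreceptor, which left 18 KO and 8 vector CD4 cells. Of 595 measured genes, 22 (3.7%) were past the fold higher in CD8 members in both libraries and 19 (3.19%) lower, and these counts were 26 and 9 without mitochondrial, ribosomal protein and haemoglobin genes in the totals. Ccl4, a chemokine of activated CD8 T cells, was at 2702 against 423 CPM and 1887 against 231 CPM, ratios of 6.39 (4.64 to 9.02) and 8.19 (4.4 to 17.2). Cxcl10 (2.43 and 6.91), Bcl2 (2.19 and 3.73) and Ifng (2.58 and 2.17) were also higher in CD8 members, but with at least 3 UMIs of Tcf7 and Lef1 the KO log2 ratio of Ifng was -0.11 in place of 1.37. Xcl1 had ratios of 10.2 and 11.6, and 1 vector cell held 484 of the 588 UMIs of its class. Nkg7 (1.83 and 14.8) and Ly6c2 (3.08 and 24.6) rest on 3 UMIs and 1 UMI in the vector CD4 cells, and the KO log2 ratio of Nkg7 was -0.28 with at least 3 UMIs of the pair. Lower in CD8 members were Odc1, the first enzyme of polyamine synthesis (by 2.74 and 2.36), the histone gene H2az1 (2.32 and 2.19), Hspa1a (2.08 and 2.14), Pkm (2 and 2.92), Aldoa (1.66 and 2.48), Klf6 (1.5 and 4.23) and Srgn, at 2209 against 3938 CPM and 1418 against 2859 CPM. In the vector library the log2 ratio of H2az1 was 0.81 with at least 3 UMIs of the pair and that of Odc1 was 0.25 as a mean over cells, both the opposite direction. Cd40lg, the CD4 helper ligand, was at 20.6 CPM in KO and 530 CPM in vector CD4 members.

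Between the libraries, over all members, 341 of 3004 measured genes (11.4%) were past the fold higher in the KO library and 124 (4.13%) lower, or 242 and 200 without mitochondrial, ribosomal protein and haemoglobin genes in the totals, a scaling that shifted the median log2 ratio of all genes by -0.10. Ribosomal protein transcripts took 24.0% of UMIs in KO members and 29.0% in vector members, and 19.3% and 23.4% in other T cells, and their further part was not tested. Of the 12 genes highest in the KO library, Cd14, Acod1, Wfdc17, Clec7a, Clec4d, Cst3 and Cxcl9 are genes of macrophages or other myeloid cells. Cxcl2, a chemokine for neutrophils, was at 1619 against 166 CPM, a ratio of 9.74 (7.56 to 12.7), with 394 of its 970 KO UMIs in 1 cell, and the ratio was 5.54 without members over 1% macrophage UMIs. In macrophage-like barcodes Cxcl2 was at 7385 and 4773 CPM, and in NK-like barcodes at 444 and 150 CPM. Cd14 was at 217 against 46.7 CPM, and Cst3 had a ratio of 3.92, or 4.64 without members over 1%. Cxcl9 had a ratio of 3.92, or 1.52 without them, and under the limits on alpha beta T cell receptor, macrophage and MHC class II transcripts its log2 ratio was -0.0017 in place of 1.97.

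Other genes higher in KO members were Ifitm3, an antiviral membrane protein, at 467 against 119 CPM, Lgals3, which encodes galectin-3, at 657 against 174 CPM, Lmna, the nuclear lamin A/C gene, at 155 against 41.6 CPM (ratio 3.73, and 4.31 without members over 1%), and Plek. Of 8 measured macrophage genes 5 were past the fold higher, with a median log2 ratio of 0.65, and of 6 MHC class II genes 5, with a median of 1.14, against 0.05 over all measured genes.

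All 16 measured immediate early genes were higher in KO members and 3 were past the fold, with a median log2 ratio of 0.40. Dusp1, a phosphatase that switches off MAP kinases, was at 946 against 361 CPM, a ratio of 2.62 (2.17 to 3.18), Egr1 at 194 against 77.9 CPM and Fosb at 409 against 231 CPM, while Jun had a ratio of 1.01. Of 12 survival genes 11 were higher and 4 past the fold (Bcl2l1, Mcl1, Bcl2a1b and Bcl2a1d, with ratios of 1.84, 1.51, 1.51 and 1.54). Of 11 heat shock genes 9 were lower and none past the fold, with a median of -0.30. Immediate early and heat shock genes also respond to tissue dissociation, which was not tested here.

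Lower in KO members were Abcb1b, a drug efflux transporter, at 36.7 against 151 CPM, a factor of 4.1 (2.47 to 7.04), Stmn1, a microtubule regulator of dividing cells, at 110 against 291 CPM, a factor of 2.64 (1.93 to 3.64), Slc7a1, an arginine transporter, at 68.4 against 174 CPM, and Id3, at 83.4 against 184 CPM, a factor of 2.21 (1.52 to 3.24). The others of the 12 were Gtdc1, Agpat5, Ecpas, Cdkal1, Wdr33, Tmem163, Ier5l and Timm23, lower by 2.07 to 3.03. Id3 was higher in the KO library, by 0.18 on the log2 scale, when the log2 ratios of CD4 and CD8 members were averaged with equal weight. That setting left out members with neither or both coreceptors, and its vector CD4 class was 8 cells. Of 7 cell cycle genes Mcm6 and Stmn1 were past the fold lower, with a median of -0.42.

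Most naive and memory genes were within 1.5-fold between the libraries. Of 13 measured naive and memory genes, Ccr7 was past the fold higher in the KO library, at 117 against 54.5 CPM, and Id3 lower, and the median log2 ratio was 0.06. Klf2 had a ratio of 1.13, Satb1 of 1.06 and Il7r of 1.44. Xcl1 was at 1186 CPM in KO and 1969 CPM in vector members, with most of its vector UMIs in 1 cell, so the vector level rests largely on that cell. None of 13 T cell receptor genes, 8 TCF/LEF partners or 6 scramblases and flippases was past the fold. Lef1 had a ratio of 1.41 (1.09 to 1.82). Of the innate-like genes, Klra7 was at 154 CPM in KO and 252 CPM in vector members and Trdc at 187 and 114 CPM. Of 4 measured ILC2 genes Gata3, Areg and Arg1 were past the fold higher, with 75 of the 101 KO UMIs of Areg in 1 cell, and of 4 CD4 lineage genes Cd4, Tnfsf8 and Tnfrsf4, with CD4 members being 16.5% and 12.7% of all members.

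Of 13 cytotoxic genes, Ccl3 (2.24), Ccl4 (1.61), Ifng (1.5, at 612 against 408 CPM) and Zeb2 were past the fold higher in KO members and Gzma lower. Of 7 T helper genes, Gata3 (1.96), Ifng, Tnf (1.79) and Il2 were past the fold higher, and 81 of the 85 KO UMIs of Il2 were in 1 cell. Of 9 genes induced by interferon gamma, Gbp2, Igtp, Irf1 and Tap1 were higher, with a median log2 ratio of 0.42, and of 13 type I interferon genes 3 were higher, Bst2 and Zbp1 among them. Glycolysis genes had a median of 0.26, with Hk2 higher and Slc2a1 lower among 14.

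**Figure D5:**
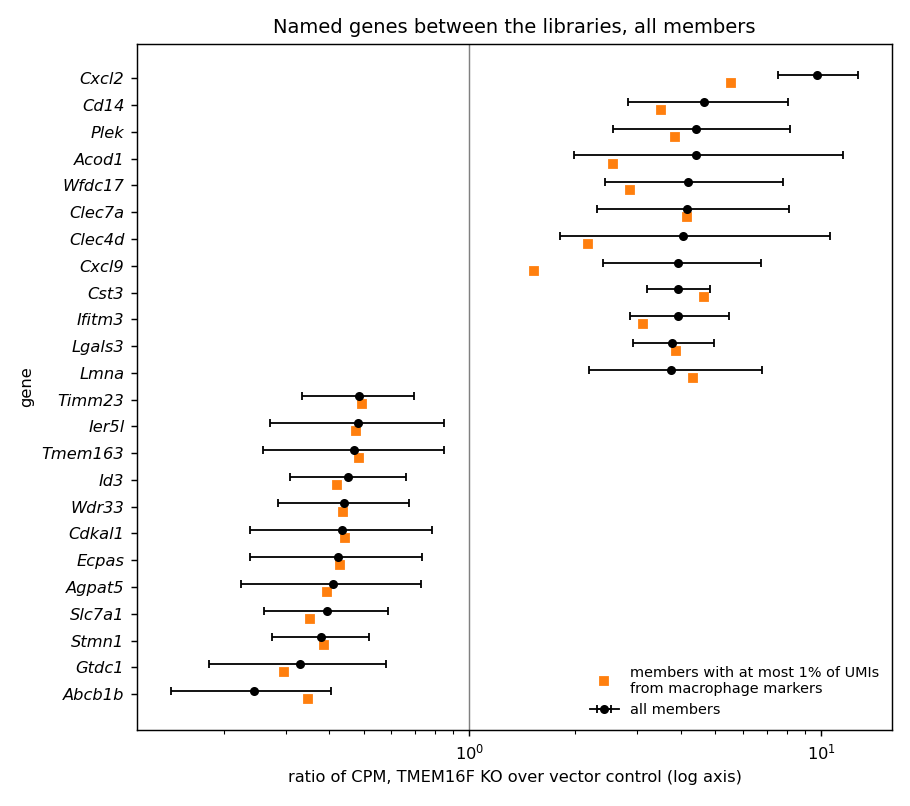
Ratio of CPM in members of the TMEM16F KO library over members of the vector control library (horizontal log axis) for the 12 highest and 12 lowest named genes, with exact 95% counting intervals (black) and the ratio without members over 1% macrophage UMIs (orange squares). Cxcl2 moves from 9.74 to 5.54 and Cxcl9 from 3.92 to 1.52, while Lmna is at 3.73 and 4.31.

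Among the CD8 members alone, 119 of 1161 measured genes (10.2%) were past the fold higher in the KO library and 116 (9.99%) lower. Ccr7 was at 206 against 57.6 CPM, a ratio of 3.57 (1.8 to 7.7), Il7r at 376 against 168 CPM, a ratio of 2.25 (1.47 to 3.51), and Klf2 at 1274 against 728 CPM. These 3 were higher and Foxo1 lower, by 1.8, among 9 measured naive and memory genes, while Satb1 had a ratio of 1.02. Ifitm3 was at 406 against 62.8 CPM, and the zinc finger factor Klf4 at 271 against 94.3 CPM. Ikzf2 was the lowest, at 135 against 456 CPM, a factor of 3.36 (2.16 to 5.39), with 29 of the 87 vector UMIs in 1 cell. Cxcl2, Cd14, Plek, Il1b, Cct6a, Ifitm2, Ier3, Lgals3 and Egr1 were the other highest genes, and Tnks2, Ankrd44, Dleu2, Rbbp4, Erdr1y, Zswim6, Kansl1, Mbnl2, Kdm6a and Prkch were also among the 12 lowest. Ribosomal protein transcripts were 27.3% and 29.0% of UMIs in CD8 members without Cd4, closer than in the other members.

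Among members with neither coreceptor, 222 of 1413 measured genes (15.7%) were past the fold higher in the KO library and 67 (4.74%) lower. The split was 172 and 121 without mitochondrial, ribosomal protein and haemoglobin genes in the totals, and 198 and 100 with median-of-ratios factors. Macrophage markers summed to 5900 and 2701 CPM and ribosomal protein transcripts to 23.0% and 29.5% of UMIs, and 7 of 8 measured macrophage genes and all 5 MHC class II genes were past the fold higher. Cxcl2 (13.2), Clec7a (12.7), Ccl3 (9.58), Ccl2 (4.62), Cxcl9 (4.59) and Ier3 (4.33) were among the highest, with Lgals3, Cst3, Ctsl, Ctsz and Wfdc17, and so was Fabp5, a fatty acid binding protein, at 347 against 73 CPM. Id3 was at 72.6 against 252 CPM, lower by 3.47 (2 to 6.16). Plac8 was at 106 against 358 CPM with 20 of its 54 vector UMIs in 1 cell, and Gzma was lower by 4.5 with 91 of 94 vector UMIs in 1 cell. Slc7a1 (2.74), Stmn1 (2.66), Dusp10 (2.62) and Tnik (2.2) were also lower. Of the genes that marked this class, Cd7 had a ratio of 1.52 (1.05 to 2.24) and Ikzf2 of 0.956, and Klra7 was at 284 against 405 CPM.

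The CD4 members were 21 and 9 cells, and 104 of 499 measured genes (20.8%) were past the fold higher in the KO library and 58 (11.6%) lower. Single cells set the highest values: 75 of 92 KO UMIs of Areg and 44 of 71 of Cebpb were in 1 cell each. Ifitm3 was higher by 7.62, as it was in the CD8 members. Klf2 was at 799 against 2136 CPM, lower by 2.67 (2.01 to 3.57), the opposite direction to the CD8 members, a difference that was not tested, and Hivep2 (2.53) and Lsp1 (2.35) were lower too.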

How the data were processed

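Tumour tissue was dissociated and captured with 10x Genomics 3′ chemistry, per the labels' protocols. The deposited values are raw UMI counts per gene and barcode from Cell Ranger 8.0.0, per the file headers, for 34290 genes; the build mm10 and Seurat 3.1.1 come from the submitters' processing notes. The members and gene lists were chosen with earlier results of these data known, and the comparisons and settings said to be added were chosen after seeing the data.

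Barcodes with at least 1000 UMIs entered (10425 of 11246). For each class and library the cells' UMIs were added up and scaled to CPM, with exact Poisson intervals for sums, Clopper-Pearson intervals for shares and conditional binomial intervals for ratios. With 1 library per group no p-value was computed. Genes were named by rule: the 12 highest and 12 lowest between libraries, or 15 each way in both libraries between classes (ranked by the smaller ratio), with at least 50 UMIs, past 1.5-fold, an interval excluding 1 and a UMI in at least 10% of cells of the higher group; mitochondrial, ribosomal protein, haemoglobin, immunoglobulin and T cell receptor variable genes and unnamed models were left out. Up to 4 genes of each of 32 lists were also open to naming, and other list genes were named after their values were seen. Scrublet's automatic threshold marked 0 barcodes in both libraries and so did not work; no doublets were removed, and an alternative left out the 287 KO and 221 vector barcodes with the highest scores. The scripts were tested on simulated data. Python 3.11.15, numpy 2.4.6, scipy 1.17.1, pandas 2.3.3, scanpy 1.11.5 and matplotlib 3.10.9 were used. Some genes that met these rules are not reported here.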

Additional observations from a re-analysis of the deposited data

Results flagged for a closer look

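The contrasts below went opposite ways in the classes or libraries compared, each with 1 library per genotype, and none of these differences was tested. Between the libraries, Kdm6a, a histone demethylase, had a log2 ratio of KO over vector of -1.32 in CD8 members (90.3 against 225 CPM) and of 0.78 in members with neither coreceptor (205 against 119 CPM). Tle4, a corepressor partner of TCF-1, had -0.94 and 0.80, and the complement gene C1qc, a macrophage marker, -0.93 and 1.18. Ighm, an immunoglobulin heavy chain gene, was lower in members than in other T cells in the KO library (log2 ratio -3.06) and higher in the vector library (1.31).

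CD8 against CD4 members gave opposite log2 ratios in the KO and the vector library for Klf2 (0.74 and -1.73), Il7r (1.11 and -1.33), Zfp36 (0.99 and -0.98), Nfkb1 (-1.44 and 1.09) and Rel (-0.78 and 2.02), where the vector CD4 class is 8 cells. Members with neither coreceptor against CD8 members gave 0.65 and -1.39 for C1qc and 0.71 and -0.93 for Tnf. CD8 members against other CD8 T cells gave 1.07 and -1.81 for Csf2, which encodes GM-CSF. The KO CD8 members had 12 Csf2 UMIs and the vector CD8 members had 0. The value of -1.81 was computed with 3 UMIs in place of 0 and is not a measured ratio.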

How the results depend on the processing

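The higher share of members in the KO library (ratio 1.51) was 3.80 after thinning to 1000 UMIs, where members with neither coreceptor were 19 of 27 KO and 6 of 6 vector members, so that the ratio of their share among members was 0.704 in place of 1.27 and no CD4 or CD8 member was left in the vector library. The counts of genes past the fold moved with the minimum and the fold. With a minimum of 100 UMIs, of 10 UMIs, and with a 2-fold threshold they were 169, 2614 and 119 over all members (465 as reported), 74, 2021 and 71 in CD8 members (235), 42, 1351 and 76 in CD4 members (162), 105, 2130 and 102 in members with neither (289), 872, 2355 and 540 for members against other T cells (1343), 20, 359 and 12 for CD8 against CD4 members (41), 12, 357 and 8 for members with neither against CD8 members (47), and 278, 1413 and 164 for CD8 members against other CD8 T cells (517). With at least 3 UMIs of the pair they were 125 in CD8 members, 81 in CD4 members, 181 in members with neither and 28 for members with neither against CD8 members. Averaging the log2 ratios of CD4 and CD8 members with equal weight gave 910 of the genes measured over all members. That setting left out members with neither or both coreceptors. CD8 against CD4 members gave 27 with at most 1% macrophage UMIs and 26 with the limits on alpha beta T cell receptor, macrophage and MHC class II transcripts, which gave 640 for members against other T cells.

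Directions turned as follows, as log2 ratios with the reported value in parentheses. Under those limits, Cxcl9 between libraries was -0.0017 (1.97), and members against other T cells gave 0.24 for Pkib (-2.23) in the KO library, and 0.085 for Alox5ap (-2.91), 0.51 for Clec5a (-2.14; 0.39 with at most 1% macrophage UMIs), 0.44 for Lmo2 (-2.13) and 0.095 for H2-DMb1 (-2.13) in the vector library. Cd74, members with neither against CD8 members in the vector library, was -0.070 (0.87), and -0.97 with at least 3 UMIs of the pair. List medians, members against other T cells under those limits, were -0.32 for T cell receptor genes (0.33), -0.19 for T helper genes (0.30) and 0.51 for NK genes (-0.45; 0.13 with at most 1% macrophage UMIs) in the KO library, and -0.28 for CD4 lineage genes (0.34), 1.32 for dendritic genes (-2.15) and 0.18 for NK genes (-0.59) in the vector library. The macrophage list, CD8 members against other CD8 T cells, was 0.00042 (-0.49) and 0.084 (-0.34). Cd74, H2-DMb1, the macrophage markers and the T cell receptor constant genes define these limits, so their changes were partly set in advance. With at least 3 UMIs of the pair, Gzma in members with neither was 3.91 (-2.17), Atp5f1b in CD4 members 1.43 (-1.03), and CD8 against CD4 members gave -0.11 for Ifng (1.37) and -0.28 for Nkg7 (0.87) in the KO library and 0.81 for H2az1 (-1.13) in the vector library. As a mean over cells, Psmb3 and Atp5f1b in CD4 members were 0.013 (-1.11) and 0.23, Odc1, CD8 against CD4 members in the vector library, was 0.25 (-1.24), and the ILC2 list, members against other T cells in the KO library, was -0.40 (0.27). With CD4 and CD8 members weighted alike and the other members left out, Id3 between libraries was 0.18 (-1.14) and the egress list -0.18 (0.22). The cause was not tested.

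Of 317 values of named genes, 317 were counted as the same under both other scalings. The number was 316 with at least 2000 UMIs and 308 without high doublet scores. A rescaling moves all log2 ratios of a comparison by the same amount. Without mitochondrial, ribosomal protein and haemoglobin genes in the totals the largest such shift was 0.15, for CD8 against CD4 members in the KO library. Named genes were picked as the most extreme, with intervals excluding 1, so their count says little about the scalings. Over all members, the 341 higher and 124 lower genes became 242 and 200 without those genes in the totals. As a mean over cells, the higher and lower genes in members against other T cells were 388 and 694. The planned limit of 2 macrophage UMIs left 1 KO and 4 vector members and was not run. No paired analysis was possible because each genotype has 1 library. With 8 to 38 cells in the coreceptor classes of members without the other coreceptor, single cells set some values, and shares of cells with a UMI depend on depth.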
